A study of Rattus norvegicus with 2 samples.

Results

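Insulin-like growth factor 1 (Igf1), its receptors and the IGF binding proteins were described here in single cells of skeletal muscle from a rat-mouse chimera and from a Sprague-Dawley (SD) rat. The members were the 9 genes Igf1, Igf1r, Igf2r, Igfbp2, Igfbp3, Igfbp4, Igfbp5, Igfbp6 and Igfbp7, chosen by gene name, of 23373 rat genes and 25906 mouse genes that were counted. All 9 had a rat and a mouse entry among the 16109 pairs of the same name.

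The study asked which cells of a rat's muscle can come from mouse induced pluripotent stem cells (iPSCs). The chimera group was 1 animal, made by injecting Dmd mdx; Pax7-nGFP mouse iPSCs, whose dystrophin gene had been edited with CRISPR, into an SD rat morula. The control group was 1 SD rat without injected cells. Skeletal muscle of the whole body was broken up with collagenase, cells that took up the live dye Calcein Violet were sorted, and 3′ transcripts were counted as unique molecular identifiers (UMIs, 1 per captured transcript). The host rat cells carried no named allele, the mouse cells carried the edited dystrophin gene and the nuclear GFP reporter, and the ages of the animals were not given in the sources used here.

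With 1 library in each group no difference has a replicate check, and no test was possible. Intervals in brackets are exact 95% intervals for counting error only. The chimera library held 13299 barcodes and 118872850 UMIs, the SD rat library 10117 barcodes and 70957559 UMIs, and 43 barcode sequences occurred in both. After filters and removal of predicted doublets, 8816 SD rat cells remained, with a median of 6276 UMIs. Chimera barcodes with at most 20% of their UMIs on mouse genes were called rat (8230 cells, median 8589 UMIs) and those with at least 80% were called mouse (1847 cells, median 6948 UMIs). The 1653 barcodes in between were kept out of both. Cells were grouped by marker genes into classes named for the cell type they resemble, such as FAP-like (fibro-adipogenic progenitors, the stromal cells of muscle), MP-like (muscle progenitors, with satellite cells) and EC-like (endothelial cells). The members were left out of the clustering. Levels are counts per 1000000 UMIs of the cell's own species (CPM), from UMIs summed over a class.

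IGF-1 is a secreted peptide that drives growth and repair of muscle, and it is made in the liver and locally in tissues. It signals through the tyrosine kinase receptor IGF1R, whereas IGF2R, which also carries mannose 6-phosphate-tagged proteins to lysosomes, takes IGF-2 out of circulation. The binding proteins hold IGFs in the blood and the extracellular matrix, and depending on the protein and on its cleavage by proteases they restrain or release the ligand.

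The ligand was more concentrated in FAP-like cells than its signalling receptor, as given below, and their promoters differed in CG dinucleotides. A link between these differences was not tested. The promoters are printed here to set the ligand gene beside the receptor gene. The 100 bases before each transcription start, from RefSeq on rat build GRCr8 (not the build of the counts), are given 5′ to 3′ with every CG dinucleotide in capitals, Igf1 from chr7:24172432-24172531 and Igf1r from chr1:130959897-130959996, both on the plus strand.
Igf1: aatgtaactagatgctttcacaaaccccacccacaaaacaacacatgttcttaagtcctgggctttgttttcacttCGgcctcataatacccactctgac
Igf1r: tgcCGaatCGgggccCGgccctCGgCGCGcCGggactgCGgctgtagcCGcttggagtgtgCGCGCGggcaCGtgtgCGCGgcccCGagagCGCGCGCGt
The Igf1 window held 1 CG and the Igf1r window 20. Over the 250 bases before the start, Igf1 had 3 CG dinucleotides, and 71.4% of 33469 rat promoters had at least as many. Igf1r had 45, which only 0.415% of promoters reached. The other members lay between them, from 5 in Igfbp6 and 8 in Igfbp5 to 26 in Igfbp7 and 31 in Igfbp3, beside a median of 5 over all promoters. Igfbp3, with 31, also lay mainly in FAP-like cells of the SD rat, which held 20804 of its 24694 UMIs. CG reads the same on both strands, and these CG counts describe the sequence only.

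Igf1 in the SD rat was mainly a transcript of FAP-like cells. They made up 36.4% of the cells and held 55.0% of all UMIs. Of the 23781 Igf1 UMIs they held 83.4% [82.9 to 83.9], at 544 CPM [536 to 551]. Pericyte or mural-like cells, which wrap vessels, followed with 296 CPM. Myeloid-like cells (251 CPM) and tenocyte or fibroblast-like cells (247 CPM) came next and were not apart by their intervals. MP-like cells had 103 CPM, and lymphatic EC-like, Schwann or glial-like and T or NK-like cells had 96.0, 94.7 and 61.6 CPM, each overlapping its neighbour in this order. EC-like, mast cell-like and B cell-like cells had 39.6, 32.2 and 26.9 CPM. Myocyte-like cells, the fragments of muscle fibres, were lowest at 9.91 CPM.

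The share of cells with an Igf1 UMI gave a similar picture. It was 85.7% of FAP-like cells, at a median of 10929 UMIs, and 6.85% of B cell-like cells, a type that should lack the gene, at a median of 3539 UMIs. In cells with at least 1000 UMIs of their own species, each thinned to 1000, the shares were 35.2% and 4.41%. Cells with fewer UMIs were left out, so shares before and after thinning can cover different sets of cells. Myocyte-like cells, at 2.63% before and 0.843% after thinning, lay below the B cell-like share on both scales and are read as background. EC-like cells also lay below it, at 6.73% before and 1.60% after thinning, but their CPM was above that of B cell-like cells, so no order is read between these classes. The median EC-like cell of the SD rat had only 1857 UMIs, and genes of red blood cells summed to 37090 CPM in that class.

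Within classes the ligand was uneven. Among FAP-like cells of the SD rat, the cluster led by Apod, Myoc and Gpc3 had 706 CPM of Igf1, the Sfrp4 cluster 641 CPM and the Smoc2 and Cxcl14 cluster 606 CPM. The Pi16, Gap43 and Ptx3 cluster had 350 CPM and the Prg4 and Myoc cluster 273 CPM. Pi16 marks adventitial stromal cells. In the chimera the cluster led by Mfap5, Has1 and Ptx3 had 757 CPM against 976 to 1931 CPM in the other FAP-like clusters. It shared these genes with the Pi16 cluster, but Ptx3 was also a leading gene of the SD rat Sfrp4 cluster. Myeloid Igf1 lay in macrophages. The macrophage-like cluster of the SD rat had 312 CPM, and its neutrophil or monocyte-like clusters had 68.6 and 21.5 CPM. The chimera's rat cells showed the same split, with 330.2 and 233 CPM in macrophage-like clusters against 16.6 and 15.8 CPM in neutrophil or monocyte-like clusters.

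**Figure D1:**
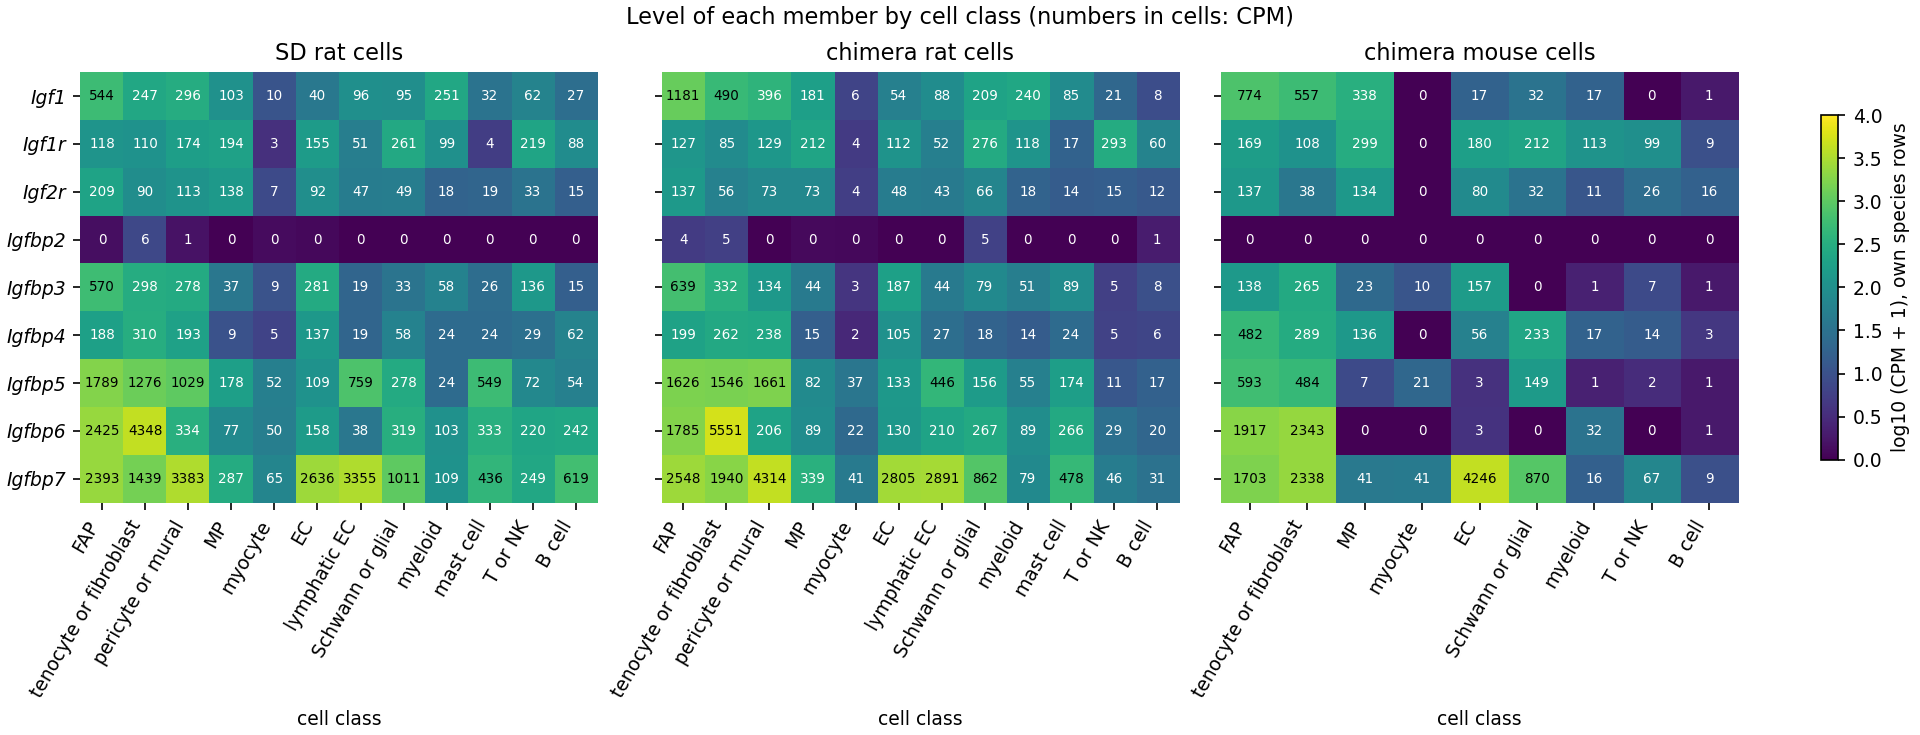
Levels of the 9 members (rows) by cell class (columns) in SD rat cells, chimera rat cells and chimera mouse cells. Colour is log10 (CPM + 1) on the rows of the cell's own species and the number in each tile is CPM; in the left panel the Igf1 row reaches 544 CPM in FAP-like cells and 10 CPM in myocyte-like cells, whereas Igfbp6 reaches 4348 CPM in tenocyte or fibroblast-like cells.

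Igf1r, which encodes the receptor through which IGF-1 signals, was spread over most classes. In the SD rat, Schwann or glial-like cells had 261 CPM [227 to 300], T or NK-like cells 219 CPM, MP-like cells 194 CPM, pericyte or mural-like cells 174 CPM and EC-like cells 155 CPM. Each of these levels overlapped the next in the order. FAP-like cells lay below them at 118 CPM, followed by tenocyte or fibroblast-like cells at 110.4 CPM, myeloid-like cells at 99.0 CPM and B cell-like cells at 88.5 CPM. Mast cell-like (4.29 CPM) and myocyte-like cells (2.59 CPM, 17 UMIs in 1519 cells) had almost none. FAP-like cells held 58.2% of the 7427 Igf1r UMIs, close to the 55.0% of all UMIs that lay in that class.

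EC-like cells were split in Igf1r. In the SD rat, 1 EC-like cluster had 276 CPM and the others 26.4 to 143 CPM. Chimera rat EC-like clusters ranged from 84.9 to 362 CPM and chimera mouse EC-like clusters from 16.9 to 473 CPM. The lowest cluster of the SD rat and of the mouse cells were also shallow, with medians of 705 and 1443 UMIs, but the high clusters of the SD rat and of the chimera rat cells were shallow too, with medians of 1386 and 1636 UMIs. The part of depth in this split was not tested.

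Igf2r, the receptor that clears IGF-2, was highest in FAP-like cells of the SD rat at 209 CPM [204 to 213]. MP-like cells had 138 CPM and pericyte or mural-like cells 113 CPM, EC-like cells 92.2 CPM and tenocyte or fibroblast-like cells 89.8 CPM, all overlapping their neighbours. Myeloid-like cells had 17.8 CPM and myocyte-like cells 7.01 CPM. Within FAP-like cells the Smoc2 and Cxcl14 cluster had 295 CPM and the Pi16 cluster 237 CPM, and the other 3 clusters had 139 to 147 CPM.

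**Figure D2:**
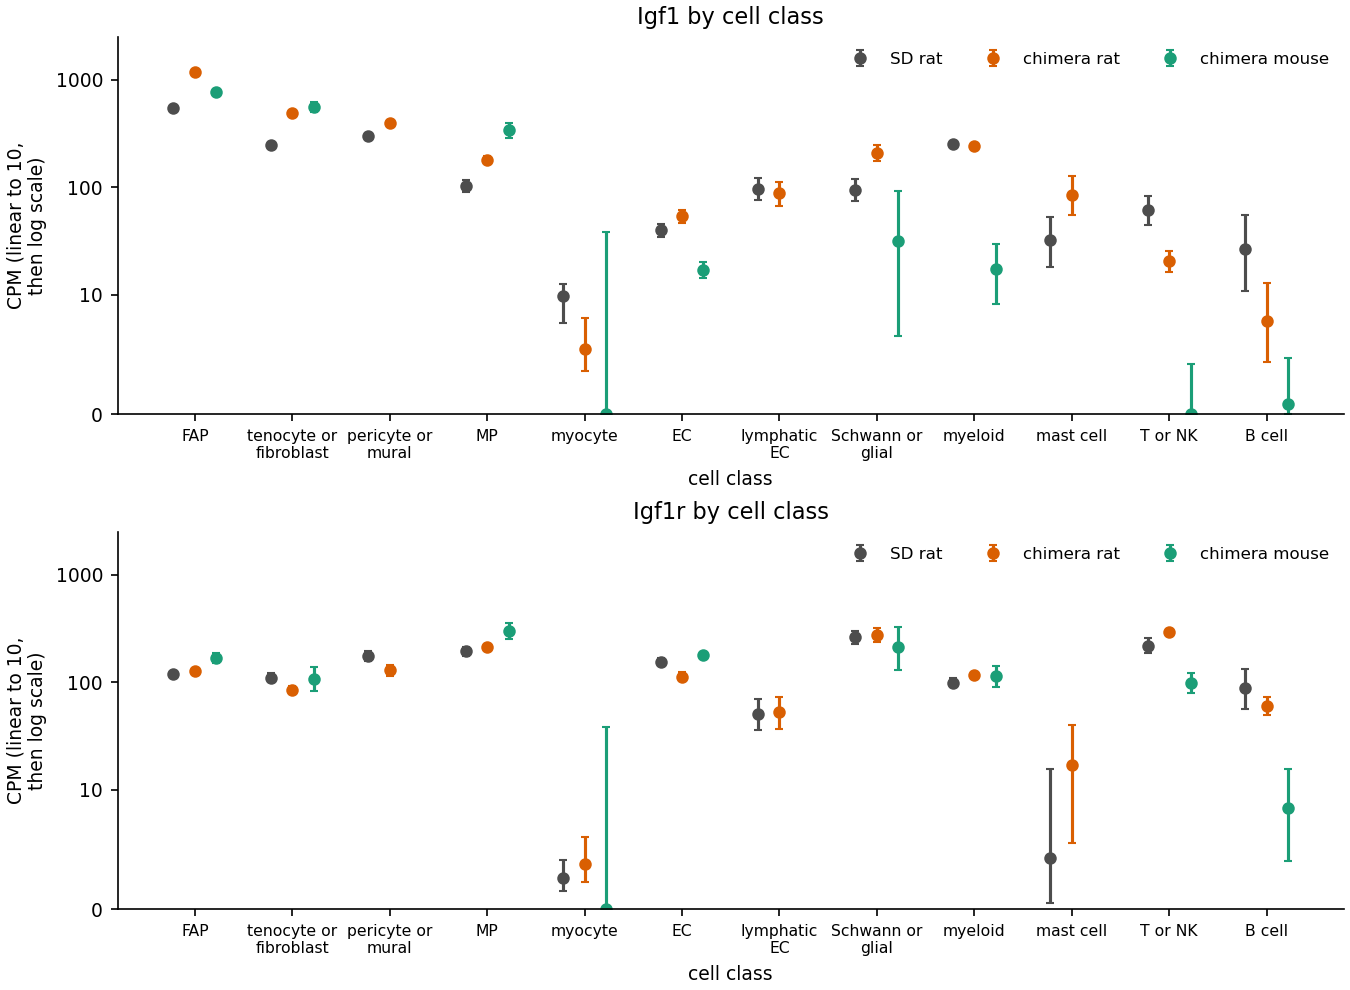
CPM of Igf1 (top) and Igf1r (bottom) by cell class in SD rat, chimera rat and chimera mouse cells, with exact 95% counting intervals, on an axis that is linear to 10 and logarithmic above. Igf1 spans from 9.91 CPM in myocyte-like to 544 CPM in FAP-like cells of the SD rat, and the chimera rat FAP-like cells lie above at 1181 CPM; Igf1r lies between 50.6 and 261 CPM in all SD rat classes but mast cell-like and myocyte-like cells.

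The 6 binding proteins fell into separate patterns over the SD rat classes. Igfbp3, which carries most IGF in blood together with the acid-labile subunit, was highest in FAP-like cells at 570.3 CPM [563 to 578]. Tenocyte or fibroblast-like cells had 297 CPM, EC-like cells 281 CPM and pericyte or mural-like cells 278 CPM, and those 3 were not apart. T or NK-like cells had 136 CPM, but 49 of their 95 UMIs lay in 1 cell. Within FAP-like cells Igfbp3 ranged from 81.9 CPM in the Pi16 cluster to 1054 CPM in the Sfrp4 cluster. In chimera rat cells the Mfap5, Has1 and Ptx3 cluster had 209 CPM and the cluster led by Sfrp4 had 1135 CPM. Their pairing with the SD rat clusters is not unique, since Ptx3 and Sfrp4 were leading genes of both the Pi16 and the Sfrp4 cluster.

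Igfbp4, an inhibitor of IGF action that the pappalysin proteases cleave, was highest in tenocyte or fibroblast-like cells at 310 CPM [294 to 327]. Pericyte or mural-like cells (193 CPM) and FAP-like cells (188 CPM) were not apart, and EC-like cells had 137 CPM. MP-like cells had 9.12 CPM, from 21 UMIs with no cell above 1.

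Igfbp5, which binds matrix and is a classical binding protein of muscle and bone, followed a different gradient within the stroma. It was highest in FAP-like cells at 1789 CPM [1775 to 1803], ahead of tenocyte or fibroblast-like cells at 1276 CPM, pericyte or mural-like cells at 1029 CPM (interval 984 to 1077) and lymphatic EC-like cells at 759 CPM. EC-like cells had only 109 CPM. The mast cell-like level of 549 CPM came from 1 cell with 248 of the 256 UMIs. The Pi16 cluster of FAP-like cells had 4092 CPM and the Smoc2 and Cxcl14 cluster 740 CPM, so Igfbp5 and Igfbp3 ran in opposite order between the Pi16 and the Sfrp4 clusters (4092 against 1496 CPM for Igfbp5, 81.9 against 1054 CPM for Igfbp3). The Mfap5, Has1 and Ptx3 cluster and the Sfrp4 cluster of the chimera rat cells had 3130 against 1871 CPM for Igfbp5 and 209 against 1135 CPM for Igfbp3. This is the same order, but the pairing with the SD rat clusters is not unique. Igfbp5 was itself a leading gene of the Mfap5, Has1 and Ptx3 cluster.

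Igfbp6, which prefers IGF-2 over IGF-1, was highest in tendon-type cells. Tenocyte or fibroblast-like cells had 4348 CPM [4287 to 4410], FAP-like cells 2425 CPM and the other 10 classes, cycling cells apart, at most 334 CPM. Within FAP-like cells it ranged from 875 CPM in the Smoc2 and Cxcl14 cluster to 3769 CPM in the Prg4 and Myoc cluster.

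Igfbp7, a vessel-associated relative that binds IGFs weakly, was highest in pericyte or mural-like cells (3383 CPM [3300 to 3468]) and lymphatic EC-like cells (3355 CPM), which were not apart. EC-like cells had 2636 CPM, FAP-like cells 2393 CPM and tenocyte or fibroblast-like cells 1439 CPM. The Pi16 cluster of FAP-like cells had 430.3 CPM against 1264 to 3205 CPM in the other 4 FAP-like clusters.

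Igfbp2 was hardly detected. The SD rat had 53 UMIs in 36 cells, 28 of them in tenocyte or fibroblast-like cells, where 1 cell held 16. No mouse cell of the chimera had a UMI on the mouse Igfbp2 row, and 0 UMIs in 127 FAP-like cells allow a level of up to 1.61 CPM at 3 counts.

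The tenocyte or fibroblast-like cells split by Igfbp5 and Igfbp7. The Kera, Fmod and Tnmd cluster of the SD rat, with genes of dense tendon matrix, had 1764 CPM of Igfbp5 and 856 CPM of Igfbp7. The Thbs4, Emb and Tnmd cluster had 39.1 CPM of Igfbp5 and 2915 CPM of Igfbp7. In chimera rat cells the Fmod and Kera cluster had 2315 and 1120 CPM, and the Tnmd and Thbs4 cluster had 64.7 and 3519 CPM, so the opposite order of these 2 binding proteins was seen in both animals. Igf1 differed little between the clusters of the SD rat, at 245 and 250.3 CPM.

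**Figure D3:**
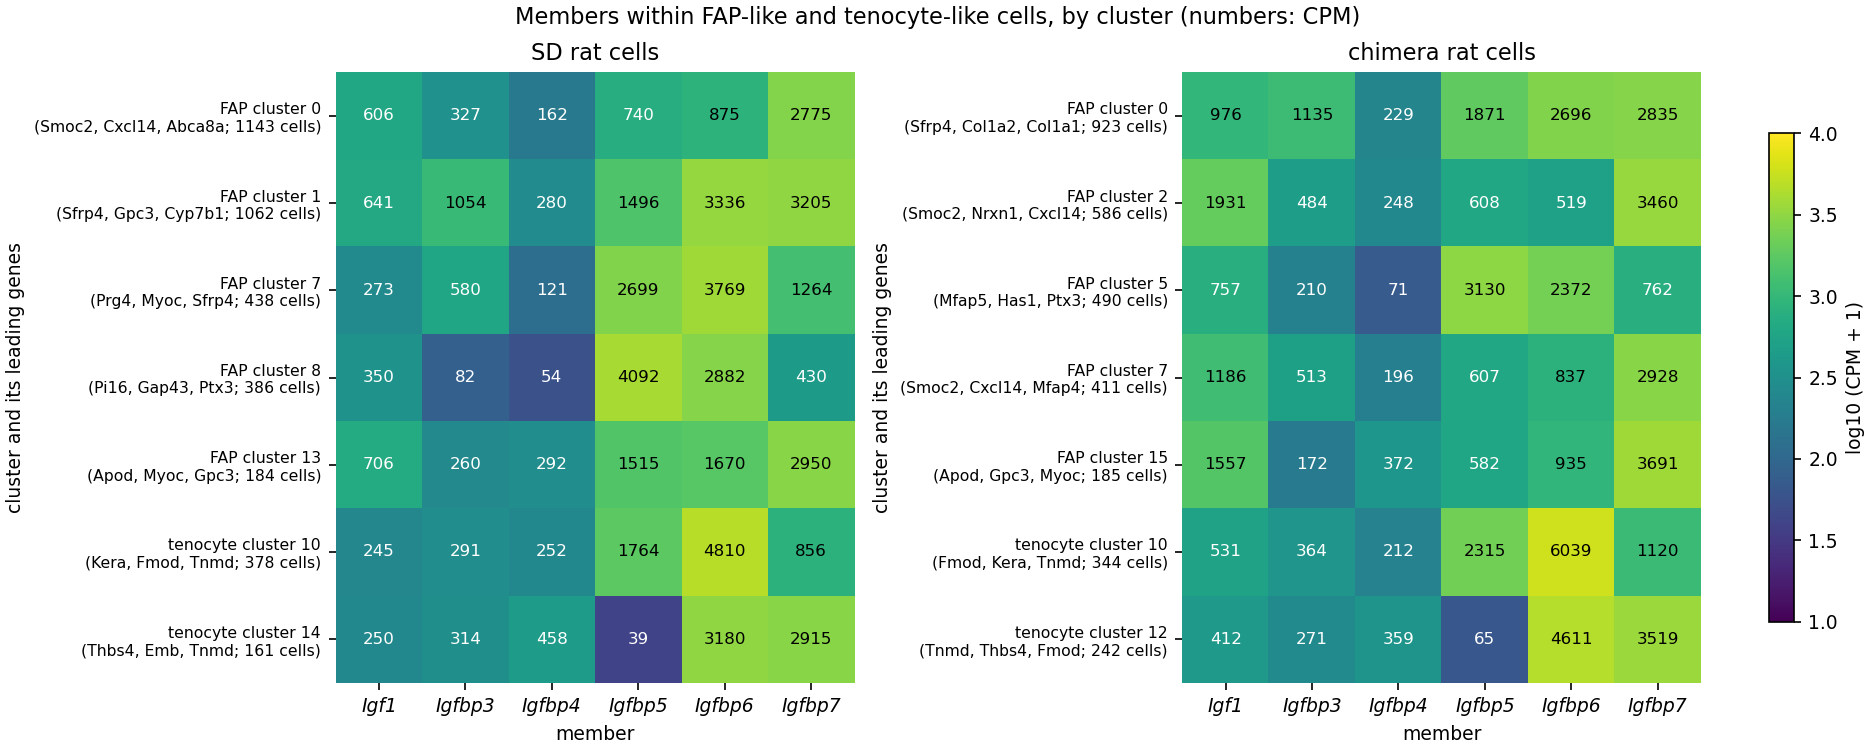
Igf1 and 5 binding proteins (columns) in the clusters of FAP-like and tenocyte or fibroblast-like cells (rows, with their 3 leading genes and number of cells) of the SD rat (left) and of chimera rat cells (right). Colour is log10 (CPM + 1) and the number is CPM; Igfbp5 reads 4092 CPM in the SD rat Pi16 cluster and 39 CPM in the Thbs4 cluster, and Igfbp3 reads 82 and 314 CPM in the same clusters.

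Genes whose levels ran most like each member over the 12 SD rat classes were searched among 8333 genes, as a description only, since 12 classes of 1 library share depth and make-up. For Igf1 they were Itgb5, an integrin subunit (Pearson correlation 0.91), and Lrp1, an endocytic receptor (0.89). Egr1 was closest to Igf2r (0.95), Il6 to Igfbp3 (0.95) and Sparcl1 to Igfbp4 (0.92). Igfbp5 ran closest to Nbl1 (0.91) and Ccdc80 (0.90). Igfbp6 ran with the matrix genes Mfap4 and Col1a2 (both 0.97), and Igfbp7 with Ifitm3 and Akap12 (both 0.96).

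The first comparison set the rat cells of the chimera against the cells of the SD rat, class by class. The libraries were counted against different references, rat alone for the SD rat and rat with mouse for the chimera, so rat reads can be assigned to mouse genes in the chimera library alone. Over all genes, the median chimera rat cell had 11.2% of its UMIs on mouse rows. For each member, the share of its UMIs in chimera rat cells that lay on the mouse row of the same name was taken. This share also counts any RNA of mouse cells. It was 0.132% for Igfbp6, 0.927% for Igfbp7, 2.68% for Igf1, 5.25% for Igfbp3, 5.66% for Igfbp5, 9.61% for Igf1r, 9.88% for Igfbp2, 16.9% for Igfbp4 and 28.6% for Igf2r. A difference is called past the limit when the levels, with 1 CPM added to each, were at least 2-fold apart. The gene also needed at least 50 UMIs in the class, both groups together.

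Igf1 was higher in FAP-like cells of the chimera. Rat FAP-like cells of the chimera had 1181 CPM [1169 to 1194] and those of the SD rat 544 CPM [536 to 551], a ratio of 2.17 [2.14 to 2.21]. The share of FAP-like cells with an Igf1 UMI was 94.3% against 85.7%, and 57.0% against 35.2% at 1000 UMIs a cell. All 5 FAP-like clusters of the chimera rat cells (757 to 1931 CPM) lay above all 5 of the SD rat (273 to 706 CPM). The class also held its marker genes at like levels, with the 12 FAP markers summing to 10322 and 9902 CPM. The chimera FAP-like cells were somewhat deeper (median 12138 against 10929 UMIs), and the part of depth was not tested. When CPM was taken over all UMIs of a barcode the log2 ratio was 0.93, under the limit, against 1.12 over own-species UMIs.

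In the other classes Igf1 was mostly within the limit. Its level in tenocyte or fibroblast-like cells was 490.4 CPM against 247 CPM, a ratio of 1.99 [1.85 to 2.14] that just missed the limit and passed it with the rat and mouse rows summed. The FAP markers summed to 2037 against 1346 CPM in that class, and their part was not tested. MP-like cells had 181 against 103 CPM (1.75 [1.50 to 2.04]) and pericyte or mural-like cells 396 against 296 CPM (1.34 [1.20 to 1.49]). Neither direction held under every alternative, since the log2 ratio of Igf1 in MP-like cells went from 0.80 to -0.33 at a clustering resolution of 0.5 and that in pericyte or mural-like cells from 0.42 to -0.55 with species limits of 10 and 90%. The pericyte or mural-like cells of the chimera fell into 2 clusters, an Rgs5 and Vtn cluster with 672 CPM and a Tagln, Acta2 and Myh11 cluster of smooth muscle type with 212 CPM. Those of the SD rat were 1 cluster of 386 cells led by Rgs5 and Vtn, at the 296 CPM given above. The class ratio thus set unlike mixtures side by side, and the part of this make-up was not tested. Red blood cell genes summed to 31259 CPM in the chimera's MP-like cells and to 332 CPM in those of the SD rat, and their part in the MP-like ratios was not tested. Igf1 of myeloid-like cells was 239.8 against 251 CPM (0.954 [0.885 to 1.03]). In Schwann or glial-like cells it was 209 against 94.7 CPM (2.21 [1.64 to 2.98]), from 127 and 74 UMIs of which single cells held 30 and 18. There the 10 macrophage markers summed to 757 against 8.96 CPM and the 12 FAP markers to 1715 against 1315 CPM, and their part in this ratio was not tested.

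Igf1r, the signalling receptor, was within 2-fold in each of the 10 classes with enough UMIs, at 127 against 118 CPM in FAP-like cells (1.08 [1.03 to 1.12]) and 212 against 194 CPM in MP-like cells (1.10 [0.975 to 1.24]). EC-like cells had 112 against 155 CPM and T or NK-like cells 293 against 219 CPM. Igf2r was lower in FAP-like cells of the chimera, at 137 against 209 CPM, 1.52-fold [1.46 to 1.58]. It was past the limit in T or NK-like cells, at 14.7 against 32.9 CPM (60 and 23 UMIs), with a log2 ratio of -1.11. Igf2r was also the member with the largest share of UMIs on the mouse row, and with both rows summed the FAP-like log2 ratio went from -0.60 to -0.11. The EC-like log2 ratio of Igf2r went likewise from -0.94 to -0.54, that of MP-like cells from -0.91 to -0.39 and that of tenocyte or fibroblast-like cells from -0.68 to -0.16.

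The binding proteins of FAP-like cells stayed near their SD rat levels. Igfbp3 had 639 against 570.3 CPM, Igfbp4 199 against 188 CPM, Igfbp5 1626 against 1789 CPM, Igfbp6 1785 against 2425 CPM and Igfbp7 2548 against 2393 CPM. Igfbp2 was past the limit at 3.94 against 0.411 CPM, but 95 of its 113 UMIs lay in 1 cell. Thus 2 of 9 members tested, Igf1 and Igfbp2, were past the limit in FAP-like cells, beside 2.45% of the 12336 genes tested. Over the members the median log2 ratio was 0.09, and over all genes it was 0.07.

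In pericyte or mural-like cells, the cells of the vessel wall, Igfbp3 was lower in the chimera, at 134 against 278 CPM, 2.08-fold [1.81 to 2.40]. The fold was past the limit and the only one among 8 members tested there, beside 5.34% of all genes tested. With stricter species limits (at most 10% mouse UMIs) the log2 ratio of Igfbp3 in pericyte or mural-like cells was 0.45 instead of -1.05, so its direction depended on which cells were called rat. The median chimera rat cell had 11.2% mouse UMIs, so the stricter limits left out most of these cells, and the rest were clustered anew. Igfbp5 in the same class was 1661 against 1029 CPM (1.61 [1.53 to 1.70]) and Igfbp7 4314 against 3383 CPM (1.28 [1.24 to 1.32]). These turned as well with the stricter limits, from log2 ratios of 0.69 to -0.13 for Igfbp5 and of 0.35 to -0.65 for Igfbp7. The chimera class also held a smooth muscle cluster with no counterpart among the SD rat clusters, and its part in these ratios was not tested. None of 8 members passed the limit in EC-like cells, beside 6.17% of all genes, and Igfbp7 there was 2805 against 2636 CPM.

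None of 9 members passed in tenocyte or fibroblast-like cells, beside 3.36% of genes. Igfbp6 was 5551 against 4348 CPM (1.28 [1.25 to 1.30]) and Igfbp5 1546 against 1276 CPM in that class. In MP-like cells 1 of 8 members passed, beside 3.84% of genes. It was Igfbp5, at 81.6 against 178 CPM, 2.19-fold lower [1.88 to 2.55] in the chimera, in the class where red blood cell genes also differed. This call was lost without the barcode with most UMIs in each group and with the mean over cells of CPM per cell.

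Further calls came from the smaller and the non-stromal classes. T or NK-like cells of the chimera were lower for 6 of 7 members (all but Igf1r), beside 16.9% of genes. The 12 FAP markers summed to 915 CPM in SD rat T or NK-like cells and to 160 CPM in those of the chimera. Their make-up differed as well, with 1 cluster of 93 cells in the SD rat and mostly 1 cluster of 520 cells led by T cell genes in the chimera. In B cell-like cells 2 of 3 members, Igfbp6 (19.9 against 242 CPM) and Igfbp7 (31.4 against 619 CPM), were lower, beside 14.1% of genes. There the FAP markers summed to 72.7 against 1004 CPM, and 102 of the 161 SD rat Igfbp7 UMIs lay in 1 cell.

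Of 8 members tested in Schwann or glial-like cells, Igf1 and Igfbp3 (79.0 against 33.3 CPM) were higher and Igfbp4 (18.1 against 57.6 CPM) was lower, beside 5.98% of genes. Single cells held 21 of the 48 chimera UMIs of Igfbp3 and 17 of the 45 SD rat UMIs of Igfbp4. The Igfbp3 call was lost without the barcode with most UMIs in each group and with the mean over cells of CPM per cell. In lymphatic EC-like cells 1 of 6 passed, beside 5.85% of genes. This was Igfbp6, at 210 against 37.6 CPM, with 101 of its 148 UMIs in 1 cell. In mast cell-like cells 1 of 3 passed, Igfbp5, beside 8.52% of genes, and it turned to a log2 ratio of 1.78 without the barcode with most UMIs. Myeloid-like cells had 1 of 8, Igfbp5 at 54.9 against 23.7 CPM with 193 of 435 UMIs in 1 cell, beside 3.60% of genes. In myocyte-like cells Igfbp3 (3.18 against 9.45 CPM) and Igfbp6 (22.0 against 50.1 CPM) were lower, 2 of 6, beside 6.83% of genes. In sum 20 of 83 member and class pairs passed, 6 higher and 14 lower in the chimera, beside 6.18% of all gene and class pairs tested, and 9 of the 20 lay in the T or NK-like, B cell-like and mast cell-like classes.

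**Figure D4:**
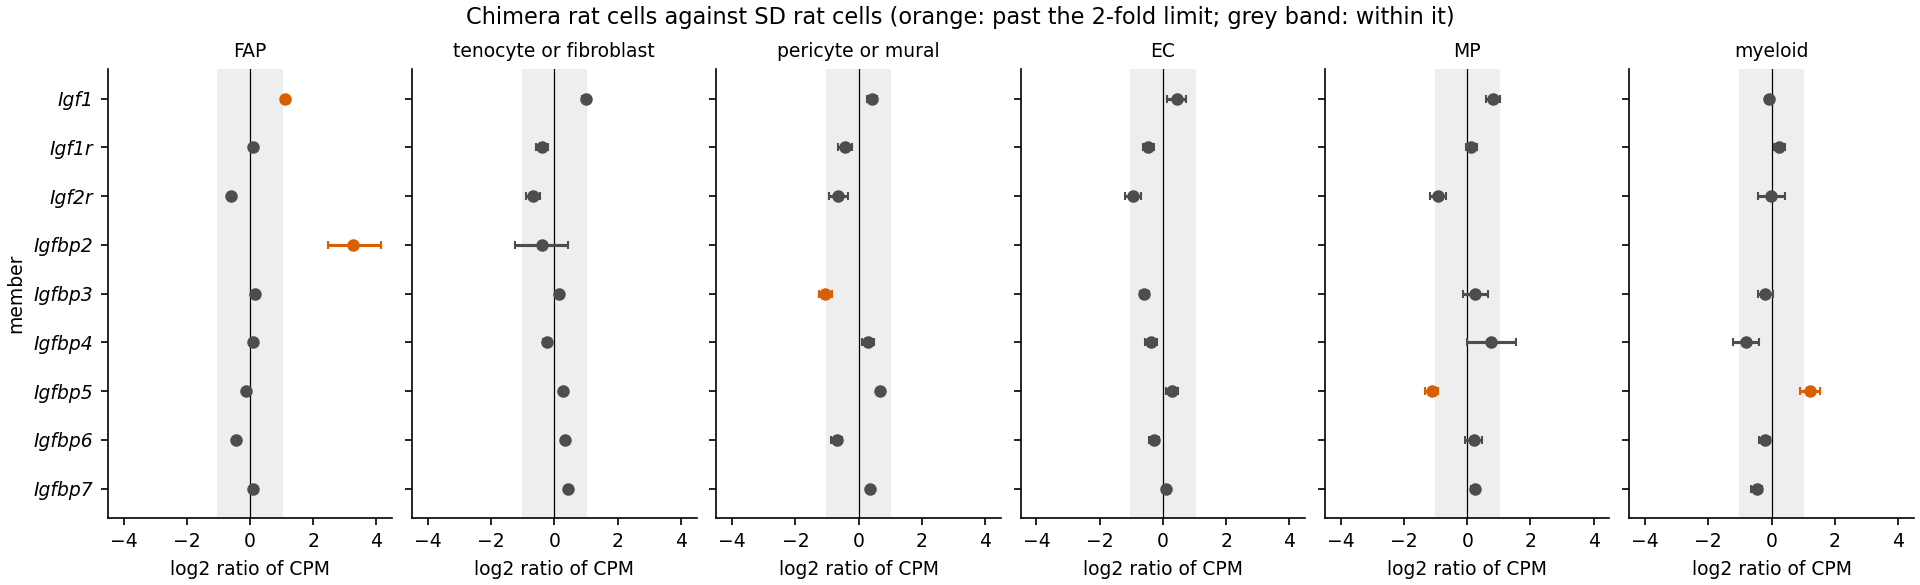
Log2 ratio of CPM, chimera rat cells over SD rat cells, for each member with at least 50 UMIs in 6 classes, with exact 95% counting intervals. Orange points are past the 2-fold limit with 1 CPM added and the grey band marks ratios within 2-fold; Igf1 lies right of the band in FAP-like cells (ratio 2.17) and at its edge in tenocyte or fibroblast-like cells (1.99), and Igfbp3 lies left of it in pericyte or mural-like cells (ratio 0.480).

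The other genes of the pathway were given by a fixed list of 28, of which 27 were counted in rat. Igf2, the second IGF ligand, had 304.7 CPM in SD rat FAP-like cells and 67.6 CPM in those of the chimera, 4.51-fold lower [4.30 to 4.73]. Igf2 was also lower in EC-like cells (47.9 against 172 CPM), tenocyte or fibroblast-like cells (28.1 against 67.7 CPM) and myeloid-like cells (6.94 against 17.8 CPM). In MP-like cells Igf2 was 150.4 against 263 CPM and in pericyte or mural-like cells 111 against 191 CPM, both within the limit. So in FAP-like cells of the chimera, the CPM of Igf1 was higher and that of Igf2 lower than in the SD rat. The share of Igf2 UMIs on the mouse row is not given here, and the alternative settings covered the members only, so the Igf2 differences lack that check.

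Of 22 pathway genes tested in FAP-like cells, 1 was higher, Stc2, a stanniocalcin that inhibits pappalysin (3.56 against 0.987 CPM), and 1 was lower, Igf2. In pericyte or mural-like cells, whose make-up differed as given above, 1 of 20 passed, the pappalysin Pappa1, which cleaves Igfbp4 (7.22 against 24.3 CPM). None passed in MP-like cells (17 tested), lymphatic EC-like cells (11) or mast cell-like cells (2). In myocyte-like cells 2 of 14 were lower, the atrophy ubiquitin ligase Fbxo32 (9.11 against 25.9 CPM) and the adaptor Irs2 (3.81 against 11.0 CPM). In T or NK-like cells 3 of 14 were lower (Htra1, Akt1 and Irs2), and in B cell-like cells 2 of 9 (Pik3r1 and Eif4ebp1). In Schwann or glial-like cells Foxo3 was higher and Grb10 lower, of 11 tested. Over all genes the shares past the limit in these classes are those given above, and nothing particular to the pathway list is read from counts of 1 to 3.

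The second comparison set mouse cells against rat cells within the chimera library, each on the rows of its own species. Annotations and 3′ ends differ between the species, so single levels are set side by side with that limit. RNA of the other species was measured too. In mouse EC-like cells 62.3% of Igf1, 91.7% of Igfbp5 and 86.3% of Igfbp6 UMIs of the pair lay on the rat row, whereas in mouse FAP-like cells 2.89% of Igfbp5 and 0.390% of Igfbp6 UMIs did.

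Within the mouse cells Igf1 was highest in mouse FAP-like cells (774 CPM [735 to 815], 127 cells), then in tenocyte or fibroblast-like cells (557 CPM [499 to 620.1], 40 cells) and MP-like cells (338 CPM [286 to 397], 46 cells). The rat levels in the same muscle were 1181, 490.4 and 181 CPM. FAP-like cells were 6.88% of the mouse cells, and held 11.6% of all their UMIs and 69.3% of their 2086 Igf1 UMIs. The small Cxcl14 cluster of mouse FAP-like cells (15 cells) had 2107 CPM and the larger cluster (112 cells) 615 CPM. Among the chimera's rat FAP-like clusters the highest, at 1931 CPM, was a cluster among those led by Smoc2 with Cxcl14. In the SD rat, however, the Smoc2 and Cxcl14 cluster lay below the Apod and Sfrp4 clusters, as given above. The 10 pericyte markers summed to 926 CPM in mouse MP-like cells, but 4 of them had no UMI there. In rat MP-like cells the 9 pericyte markers summed to 207 CPM. Acta2 was a leading gene of the mouse MP-like cluster, and the part of single genes in the sum was not tested. The presence of pericytes among these cells is therefore not read from the sum.

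Mouse myeloid-like cells had 17.3 CPM of Igf1 against 240 CPM in rat, and they were of another kind. The 67 mouse cells formed 1 neutrophil or monocyte-like cluster, and the rat neutrophil or monocyte-like clusters had 16.6 and 15.8 CPM. No Igf1 UMI was found in 90 mouse T or NK-like cells, which allows a share of cells with a UMI of up to 3.33%.

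Igf1r was highest in mouse MP-like cells at 299 CPM [251 to 355], with 212 CPM in rat MP-like cells (ratio 1.41 [1.16 to 1.70]). Schwann or glial-like cells (212 CPM, 20 UMIs, not apart from MP-like cells), EC-like cells (180.2 CPM) and FAP-like cells (169 CPM) followed, where the rat cells had 276, 112 and 127 CPM. Igf1r was lower in the mouse lymphoid classes, at 98.6 against 293 CPM in T or NK-like cells and 8.51 against 60.1 CPM in B cell-like cells. Igf2r was alike in FAP-like cells at 137 CPM in both species, a ratio of 0.999 [0.877 to 1.13]. With the rows of both species summed its log2 ratio there was -0.48, since 28.6% of Igf2r UMIs in rat cells lay on the mouse row.

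Binding proteins differed between mouse and rat FAP-like cells in both directions. Igfbp4 was higher in mouse FAP-like cells, at 482 against 199 CPM (2.43 [2.26 to 2.61]). Igfbp3 was 138 against 639 CPM, 4.63-fold lower [4.09 to 5.25] in mouse, and 126 of the 258 mouse UMIs lay in 1 cell. The make-up of the class differed too, since 112 of the 127 mouse cells lay in 1 cluster, with Igfbp6, Mfap5 and Prg4 among its leading genes, whereas the rat cells lay in 5 clusters, of which the Mfap5 and Ptx3 cluster had 209 CPM of Igfbp3. The part of this make-up in the FAP-like differences was not tested. Igfbp5 was 593 against 1626 CPM (2.74-fold lower [2.58 to 2.91]), and Igfbp2 was at 0 in 127 mouse cells against 3.94 CPM in rat. Igfbp6 was alike at 1917 and 1785 CPM (1.07 [1.04 to 1.11]), and Igfbp7 was 1703 and 2548 CPM. In FAP-like cells 1 of 9 members was higher and 3 were lower in mouse, beside 32.5% of gene pairs past the limit.

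In tenocyte or fibroblast-like cells 2 of 8 members, Igfbp5 (484 against 1546 CPM) and Igfbp6 (2343 against 5551 CPM), were lower in mouse, beside 30.4% of pairs. The log2 ratio of Igfbp6 went from -1.24 to -0.49, within the limit, with species limits of 10 and 90%. The mouse class was 1 cluster of 40 cells led by Mgp, Thbs4 and Dcn, and the rat class was the clusters of 344 and 242 cells whose Igfbp5 levels of 2315 and 64.7 CPM were given above, and the part of this make-up was not tested. Igfbp4 and Igfbp7 were 289 against 262 and 2338 against 1940 CPM there. Igfbp5 was thus lower in mouse, past the limit, in both stromal classes.

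In MP-like cells Igfbp4 was higher in mouse at 136 against 15.4 CPM (8.85 [6.04 to 13.0], 60 and 55 UMIs). Igfbp5 (6.81 against 81.6 CPM), Igfbp6 (0 UMIs, which allow up to 6.81 CPM, against 88.6 CPM) and Igfbp7 (40.8 against 339 CPM) were lower, which made 4 of 8 members past the limit beside 33.8% of pairs. The 12 FAP markers summed to 81.7 CPM in mouse MP-like cells, with 9 of them at 0, and to 748 CPM in rat MP-like cells, and their part in these differences was not tested. The mouse class was 1 cluster of 46 cells with Myog among its leading genes. Of the rat clusters of 362 and 89 cells, only the smaller had Myog there. Red blood cell genes summed to 31.8 CPM in mouse and 31259 CPM in rat MP-like cells. The part of this make-up and of these genes was not tested. For Igfbp7 the direction turned to a log2 ratio of 0.22 when each barcode took the species of most of its UMIs. Mouse EC-like cells, the largest mouse class with 1084 cells, had 3 of 8 members lower, beside 31.9% of pairs. These were Igf1 (17.1 against 53.6 CPM), Igfbp5 (2.72 against 133 CPM) and Igfbp6 (2.86 against 130 CPM), the same members that were mostly on the rat row in these cells. The FAP markers summed to 8.84 CPM in mouse and 330.2 CPM in rat EC-like cells, and their part was not tested. Igfbp7 had a UMI in 93.7% of these cells, against 7.58% of mouse B cell-like cells (medians of 5848 and 5805 UMIs), and its level was 4246 against 2805 CPM in rat (1.51 [1.48 to 1.55]), and Igfbp3 was 157 against 187 CPM.

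Arteries and veins differed in Igfbp3 among the mouse EC-like cells. The Mgp, Rbp7 and Stmn2 cluster raised 7 of 8 arterial markers and had 474 CPM of Igfbp3 and 168 CPM of Igfbp4. The Selp, Sele and Ackr1 cluster raised 7 of 8 venous markers and had 4.37 CPM of Igfbp3 but 149 CPM of Igfbp4. The other 7 mouse EC-like clusters had 98.2 to 172 CPM of Igfbp3 and 9.67 to 50.6 CPM of Igfbp4. The rat venous clusters, with 6 of 8 markers raised, did not share the low Igfbp3. They had 206 CPM in the SD rat and 134 CPM in the chimera, and 203 and 176 CPM of Igfbp4.

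Among the remaining classes, 5 of 8 members were lower in mouse myeloid-like cells (Igf1 and Igfbp3, Igfbp5, Igfbp6 and Igfbp7), beside 39.0% of pairs, with the difference in kind given above. Lower were also 3 of 5 members in T or NK-like cells (Igf1, Igf1r and Igfbp6), beside 33.5% of pairs, and 2 of 2 in B cell-like cells (Igf1r and Igfbp7), beside 28.9%. Schwann or glial-like cells had 2 of 5 lower (Igf1 and Igfbp6), beside 34.3%, and myocyte-like cells 1 of 3 (Igfbp6), beside 47.1%. The last had 0 UMIs in 30 mouse cells, too few for a direction. The FAP markers were lower in mouse in these classes too, at 31.8 against 1715 CPM in Schwann or glial-like, 25.3 against 277 CPM in myeloid-like, 61.2 against 160 CPM in T or NK-like and 57.9 against 72.7 CPM in B cell-like cells, and their part was not tested. In sum 26 of 56 member and class pairs passed, 2 higher and 24 lower in mouse, beside 33.8% of all pairs of genes and classes tested. The minimum of 50 UMIs counted both species together, and all compared rat classes but EC-like held more UMIs than the mouse classes. A gene could thus enter through rat UMIs alone, as Igfbp6 did in MP-like cells (0 against 317 UMIs). Over all gene pairs, 1838 were higher and 1512 lower in mouse FAP-like cells, 1456 and 1413 in EC-like cells, and 1007 and 2014 in myeloid-like cells. Nothing is read from the direction of the member counts.

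**Figure D5:**
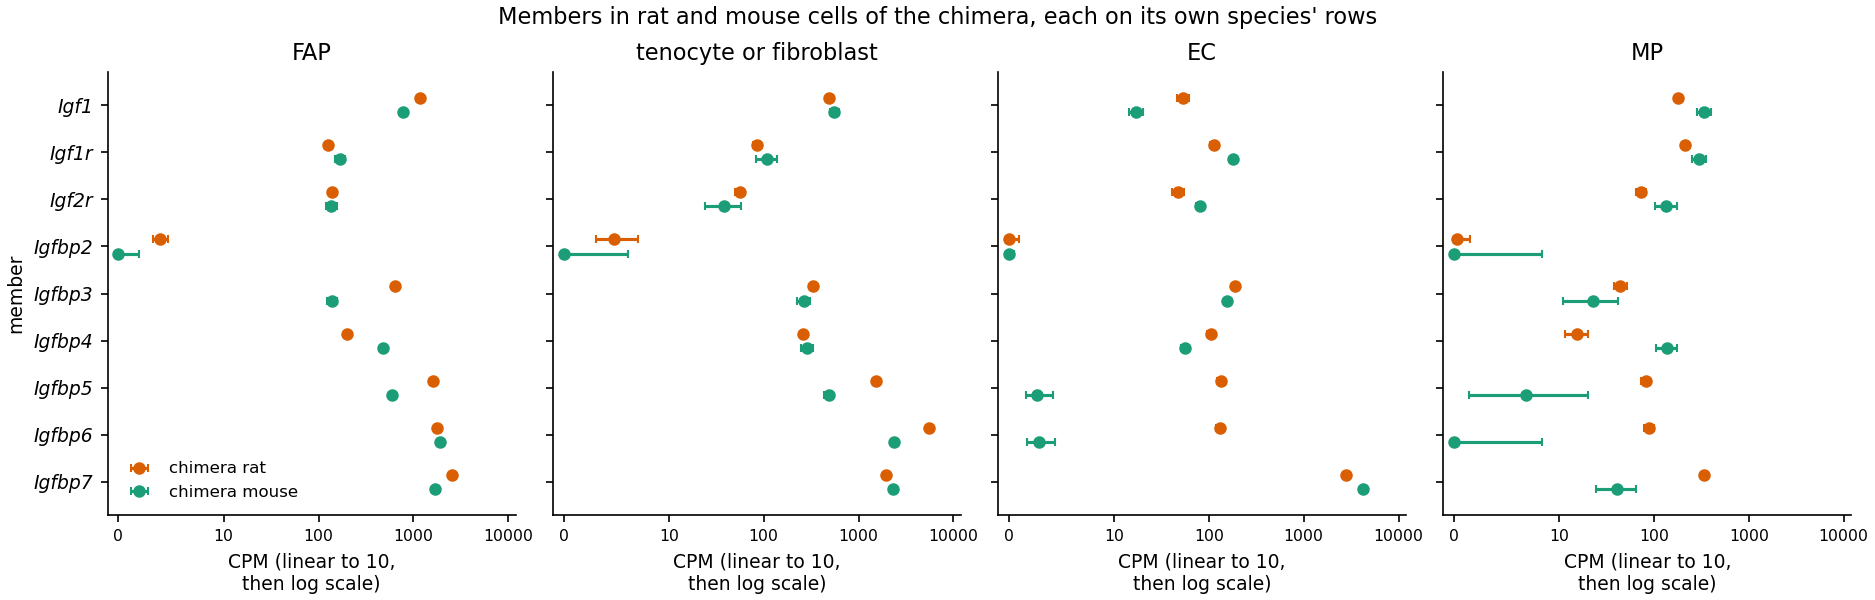
CPM of each member in rat and mouse cells of the chimera, in 4 classes, with exact 95% counting intervals, on an axis that is linear to 10 and logarithmic above. Mouse points lie left of rat points for Igfbp3 and Igfbp5 in FAP-like cells (138 against 639 and 593 against 1626 CPM) and right of them for Igfbp4 (482 against 199 CPM).

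In the pathway list, Igf2 was also lower in mouse. It was 3.21 CPM in mouse FAP-like cells against 67.6 CPM in rat, 3.26 against 47.9 CPM in EC-like cells and 9.07 against 150.4 CPM in MP-like cells. The insulin receptor Insr was higher in mouse EC-like cells (75.9 against 9.11 CPM) and the protease Htra1 lower (12.4 against 202 CPM). Pappa2, a pappalysin that cleaves Igfbp5, was 91.2 CPM in mouse tenocyte or fibroblast-like cells and 2.50 CPM in rat. The adaptor Irs2 was 106 against 42.2 CPM in FAP-like cells. In all, 3 of 21 pathway genes were higher and 1 lower in mouse FAP-like cells, beside 32.5% of all pairs. The counts were 1 and 4 of 17 in EC-like cells (beside 31.9%), 0 and 4 of 16 in MP-like cells (33.8%) and 1 and 3 of 17 in tenocyte or fibroblast-like cells (30.4%), all shares below those of all genes, and nothing particular to the list is read from them.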

How the data were processed

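Single muscle cells of a chimera and an SD rat were sequenced (10x Genomics 3′ chemistry). The authors deposited unnormalized UMI counts from Cell Ranger 7.1.0, on builds mRatBN7.2 and GRCm39 per the labels. Barcodes were kept with at least 500 UMIs, 200 genes and at most 20% mitochondrial UMIs (12174 and 8980 barcodes). Scrublet in scanpy 1.11.5, at an expected rate of 8%, marked 444 (3.65%) and 164 (1.83%) as doublets, which were left out.

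Each population was clustered on its own species' genes without the members, the pathway list and mitochondrial genes (2000 variable genes, 30 components, 15 neighbours, leidenalg 0.10.2, resolution 1). Classes follow fixed marker lists, and a marker counted as raised at 2-fold above the median cluster in at least 10% of cells. Myeloid-like pools the macrophage-like with the neutrophil or monocyte-like clusters, and cycling clusters were kept apart. The names are rebuilt and are not those of the study. The members and lists were chosen with earlier results of these data known.

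UMIs were summed per class and divided by own-species UMIs. Poisson and Clopper-Pearson intervals at 95% cover counting error only, and UMIs are not independent within cells. Limits on a level or share of 0 are those of 3 counts. Classes needed 50 cells in both groups for rat against rat and 20 for mouse against rat. On simulated counts for FAP-like chimera rat against SD rat cells (12316 genes), 100 of 100 genes changed 4-fold were recovered and 0 of 12116 unchanged genes were called. The simulated counts had counting error only, in a class with many UMIs, so this checks the calculation. It says nothing about variation between cells, animals or libraries. All 9 members, all of which are named, matched RefSeq promoters. The other genes named are the pathway genes of the list with at least 2-fold differences and genes most like a member. Clusters, marker sums and the CG counts were chosen for mention after their values were seen. The alternatives changed the filters, doublet removal, resolution, species limits, row summing, CPM base, weighting, pseudocount and UMI minimum. Species limits of 10 and 90% left out most chimera rat cells, whose median was 11.2% mouse UMIs. With these limits the member and class pairs tested in chimera rat against SD rat cells fell from 83 to 66.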

Additional observations from a re-analysis of the deposited data

Results flagged for a closer look

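A total of 15 member values were picked out because the chimera rat against SD rat log2 ratio of the same gene pointed past the limit in one class and the opposite way in another. The difference between classes was not tested, since each group had 1 library. For Igf1 the log2 ratio was 1.12 in FAP-like and 1.13 in Schwann or glial-like cells but -1.53 in T or NK-like cells, where 56 of the 84 chimera UMIs and 21 of the 43 SD rat UMIs lay in single cells. For Igfbp3 it was 1.22 in Schwann or glial-like cells, and -4.60 in T or NK-like, -1.32 in myocyte-like and -1.05 in pericyte or mural-like cells. For Igfbp5 it was 1.17 in myeloid-like cells, and -1.12 in MP-like, -2.59 in T or NK-like and -1.65 in mast cell-like cells. For Igfbp6 it was 2.45 in lymphatic EC-like cells, and -3.54 in B cell-like, -2.86 in T or NK-like and -1.15 in myocyte-like cells.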

How the results depend on the processing

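The share of Igf1 UMIs in SD rat FAP-like cells was 83.4%, stayed at 83.3 to 83.4% under the UMI filter, the lower resolution and the other treatment of cycling cells, and was 78.0% with predicted doublets kept. The log2 ratio of Igf1 in FAP-like cells, 1.12, was positive under every alternative tried. It was 1.07 with cycling clusters counted, 1.00 with species limits of 10 and 90%, 1.16 with rows summed and 0.93, under the limit, with CPM over all UMIs. The count of member and class pairs past the limit in chimera rat against SD rat cells, 20, was 31 with no UMI minimum and 10 with at least 200 UMIs, and 15 to 25 otherwise. For mouse against rat cells the count of 26 was 40 with doublets kept, 43 with no minimum, 17 with at least 200 UMIs, and 22 to 30 otherwise.

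Among the calls past the limit, directions turned in 6 values. With doublets kept, the log2 ratios of Igfbp6 and Igfbp3 in myocyte-like cells, chimera rat against SD rat, were 2.56 and 2.80. Igfbp3 in pericyte or mural-like cells was 0.45 with limits of 10 and 90%, and Igfbp5 in mast cell-like cells was 1.78 without the barcode with most UMIs. For mouse against rat, Igfbp7 in MP-like cells was 0.22 with species by majority and Igfbp6 in myocyte-like cells was 0.40 with rows summed. Of the values within the limit, 36 of 63 in rat cells and 13 of 30 in mouse against rat cells changed sign under at least 1 alternative. Apart from the barcode with most UMIs, the cause was not tested. Of the 20 calls in rat cells 3 were kept under every alternative tried (Igfbp7 in B cell-like, Igfbp4 in Schwann or glial-like and Igfbp3 in T or NK-like cells), and of the 26 calls in mouse against rat cells 18 were kept. No paired analysis was possible because each group held 1 library. Depth limits the values of small classes, since 3 UMIs equal 6.81 CPM in mouse MP-like and 11.5 CPM in SD rat B cell-like cells.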

Other observations

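The 1653 chimera barcodes between the species limits, with 50.7% of their UMIs on mouse genes, did not carry the members evenly. Igf1 had 2884 UMIs on the rat row and 369 on the mouse row, so 11.3% were mouse, and Igfbp5 (11.4%) and Igfbp6 (11.5%) were as unbalanced. Igf1r (51.6%), Igf2r (49.5%) and Igfbp7 (56.5%) lay near the share of all UMIs, and Igfbp4 (44.1%) and Igfbp3 (40.6%) a little below. The 3 members on the rat side were also mostly on the rat row in mouse EC-like cells. Whether these barcodes hold cells of both species or free RNA was not tested.

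Among muscle progenitor-like cells, Igf1 was uneven between clusters in both animals. The larger MP-like cluster of the SD rat (307 cells) had 128 CPM and the smaller (52 cells) 28.1 CPM. In chimera rat cells the larger (362 cells) had 225 CPM and the smaller (89 cells) 82.6 CPM, whereas Igf1r was 186 to 216 CPM in all 4 clusters.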
